A study of Mus musculus with 6 samples.

Results

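Brown adipocytes are best known for their response to noradrenaline, but they carry receptors for other hormones and metabolites as well. The transcripts of 10 such receptor genes, chosen by name, were followed here: Ffar4, Gpr3, Adora1, Adora2a, Adora2b, Sctr, Hcar1, Hcar2, Ptger3 and Tshr. All 10 of the 22466 genes with a RefSeq transcript in the data were found, Hcar1 under its older symbol Gpr81 and Hcar2 under Niacr1. Of several RefSeq transcripts of a gene, the one with the highest mean was used. The question was which of these receptors are transcribed in cultured brown adipocytes, and whether their abundance differs between cells with and without functional uncoupling protein 1 (UCP1), the protein that lets brown fat mitochondria turn respiration into heat.

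RNA was sequenced from 6 cultures of primary brown adipocytes, 3 of wildtype (WT) and 3 of UCP1(-/-) origin (Ucp1-KO), all of strain label 129SvEvS1. Cells of the stromal vascular fraction of interscapular brown fat of male mice were grown and differentiated in vitro, and the Ucp1 gene was disrupted in the whole animal, not only in adipocytes. Both genotypes were differentiated in the same way: with insulin, the thyroid hormone T3 and the PPARγ agonist rosiglitazone throughout, and with dexamethasone, indomethacin and isobutylmethylxanthine during induction. Several of these agents touch the receptors followed here, since indomethacin blocks prostaglandin synthesis and isobutylmethylxanthine blocks both phosphodiesterases and adenosine receptors. RNA was taken from cells that had received no adrenergic stimulus, and ligands that the cells or the medium may supply were not measured here. Cultures are named by genotype and number, WT 10 to 12 and Ucp1-KO 13 to 15.

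These receptors act on lipolysis mainly through cyclic AMP. Receptors that couple to the stimulatory G protein Gs raise cyclic AMP and thereby activate protein kinase A, hormone-sensitive lipase and the thermogenic gene programme, whereas receptors that couple to the inhibitory protein Gi lower cyclic AMP and restrain lipolysis. Among the 10, TSHR (thyrotropin), SCTR (secretin), the A2 adenosine receptors (Adora2a, Adora2b) and the constitutively active GPR3 couple to Gs. The adenosine receptor A1 (Adora1), the lactate receptor HCAR1, the ketone body and niacin receptor HCAR2 and the prostaglandin E receptor EP3 (Ptger3) couple to Gi. The fatty acid receptor FFAR4 was listed here under Gq, so it enters neither the Gs nor the Gi sum below.

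The 6 libraries held between 14989602 and 17727652 assigned reads, and abundance is given as RPKM, which scales reads by the length of the transcript and by library size. Ucp1 stood at 1775, 981 and 1157 RPKM in WT and at 307, 409 and 398 RPKM in Ucp1-KO, so 28.4% of the WT mean was left, which the study attributes to a remnant transcript of the disrupted gene. The most similar pair of cultures, WT 11 and WT 12, differed 11.7 times as much as sampling noise would give (chi-square per transcript), so no pair of libraries agreed within sampling noise. The summed RPKM of 6 adipocyte markers was between 29315 and 33112 in the 6 cultures. Macrophage markers reached 834 RPKM in Ucp1-KO 14 against 42.2 to 183 RPKM in the other cultures, and stromal and endothelial markers were highest in WT 11, at 1606 and 34.8 RPKM. The lymphocyte markers Cd3e and Ms4a1 were at 0 in all 6 cultures.

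Sequences directly upstream of a RefSeq start were on hand for 6 of the 10 receptors, for Adora1, Ptger3, Gpr3, Hcar1, Adora2b and Ffar4. That of Ptger3 reaches into the gene range given below. Adora1 had 2 such sequences, of which 1 lies inside its gene range. Shown are the 250 bases before the start of the most abundant receptor, of the receptor whose genotypes did not overlap, and of the least abundant receptor, 5′ to 3′ on the strand of the gene, from RefSeq on GRCm38.p6. They lie at chr19:38096829-38097078 (plus strand), chr11:62248734-62248983 (plus strand) and chr4:133212537-133212786 (minus strand). Capitals mark the cyclic AMP response motif TGACG on either strand.
Ffar4: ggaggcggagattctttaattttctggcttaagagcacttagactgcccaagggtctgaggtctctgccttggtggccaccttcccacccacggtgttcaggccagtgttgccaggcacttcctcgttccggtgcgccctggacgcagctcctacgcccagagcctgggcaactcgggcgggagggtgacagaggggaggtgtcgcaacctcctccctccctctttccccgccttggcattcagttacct
Adora2b: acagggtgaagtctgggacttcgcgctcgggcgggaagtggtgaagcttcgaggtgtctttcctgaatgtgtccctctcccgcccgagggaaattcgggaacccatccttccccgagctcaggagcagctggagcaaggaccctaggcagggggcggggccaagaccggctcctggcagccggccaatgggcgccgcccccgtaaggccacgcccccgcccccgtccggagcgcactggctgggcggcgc
Gpr3: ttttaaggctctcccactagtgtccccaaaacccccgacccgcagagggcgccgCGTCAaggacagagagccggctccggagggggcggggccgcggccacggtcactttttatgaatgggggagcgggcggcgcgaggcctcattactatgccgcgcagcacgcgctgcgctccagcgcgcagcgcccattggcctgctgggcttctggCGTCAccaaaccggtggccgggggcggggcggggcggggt
The Gpr3 sequence held the motif at 2 places, both on the opposite strand and starting 196 and 40 bases before the start, and the upstream sequences of the other 5 receptors held 0. Of all 32851 RefSeq promoter sequences of this length, 17.8% held the motif. The GC box GGGCGG, searched on both strands with overlaps allowed, occurred once upstream of Ffar4, 6 times upstream of Adora2b and 5 times upstream of Gpr3, and 32.7% of all promoters held it. GC content was 61.2% (Ffar4), 69.6% (Adora2b) and 70.8% (Gpr3). The letters TATAAA were in none of the 3 and in 12.4% of all promoters. These are matches of letters and not measured binding sites.

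All 10 receptors gave reads, but they spanned a wide range of abundance. The highest mean over the 6 cultures was 329.7 times the lowest, 5 receptors lay above 5 RPKM, and 9 were above the detection floor of 3 reads in every culture. Ordered by mean abundance per length, the receptors ran Ffar4, Adora1, Hcar1, Tshr, Hcar2, Ptger3, Adora2a, Sctr, Adora2b and Gpr3. The first 6 kept this order within each of the 6 cultures. Their ranges over the WT cultures did not overlap, while in Ucp1-KO the ranges of Adora1 and Hcar1, of Hcar1 and Tshr, and of Tshr and Hcar2 did. Among the last 5, from Ptger3 down, neighbours in this order were not separated from the spread between cultures: each was above its next neighbour in 3 or 4 of 6 cultures. Exceptions within a genotype were Sctr and Adora2b, whose ranges did not overlap in Ucp1-KO, and Adora2b and Gpr3, whose ranges did not overlap in WT. Receptors further apart in the order did separate: Ptger3 was above Sctr, and Sctr above Gpr3, in each of the 6 cultures.

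**Figure D1:**
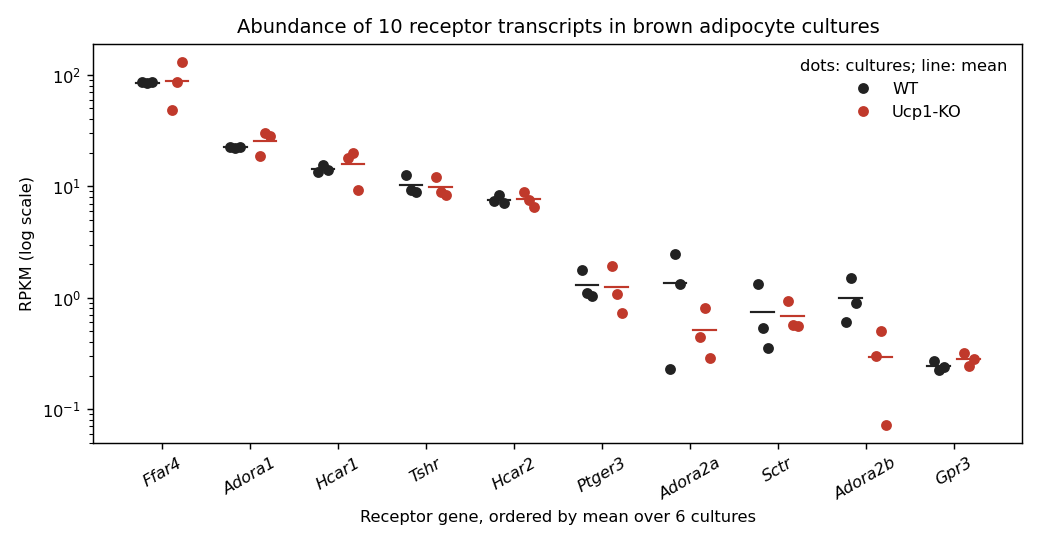
RPKM (log scale) of the 10 receptor transcripts in each culture, ordered by mean abundance, with dots for the 3 WT (black) and 3 Ucp1-KO (red) cultures and lines for the means. Ffar4 lies near 85.2 RPKM in all WT cultures but between 47.9 and 130.2 RPKM in Ucp1-KO, and the genotypes are apart for Adora2b but not for the other 9.

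No receptor passed the test for a genotype difference. Transcripts were compared if their mean reached 0.5 RPKM, by limma on log2(RPKM + 1), a scale that understates the change of low transcripts. This test covered 9 of the 10 receptors among 16865 transcripts, and Gpr3 was too low to enter. None of the 9 and 0% of all transcripts had an adjusted p under 0.05 (Benjamini-Hochberg over all transcripts), limma-voom on reads gave 0 calls too, and the smallest adjusted p in limma was 0.868 for receptors and for all transcripts alike. At an unadjusted p under 0.05, 1 of the 9 was called, Adora2b, against 5.54% of all transcripts (935, and 899 in limma-voom). The targeted gene was not called either: Ucp1 had a log2 fold change of -1.78 ± 0.24 (SE) and an unadjusted p of 0.000157, but an adjusted p of 0.868 in limma. The absence of calls after adjustment therefore does not show that receptors were unchanged. The genotypes did not overlap for that same 1 of 9 (11.1%), against 11.2% of all transcripts, so the receptors were at the background on this count. Of the 9, 3 were higher and 6 lower in Ucp1-KO, with a median log2 fold change of -0.05. Ffar4 counts as lower on this log scale although its mean RPKM was higher in Ucp1-KO. Of all transcripts 8369 were higher and 8496 lower, with a median of -0.0016. Single receptors were also compared by exact permutation tests on RPKM, two-sided, which cannot give a p under 0.10 with 3 cultures against 3. In cultures that hold several cell types, fewer cells of a type and less RNA per cell cannot be told apart.

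**Figure D2:**
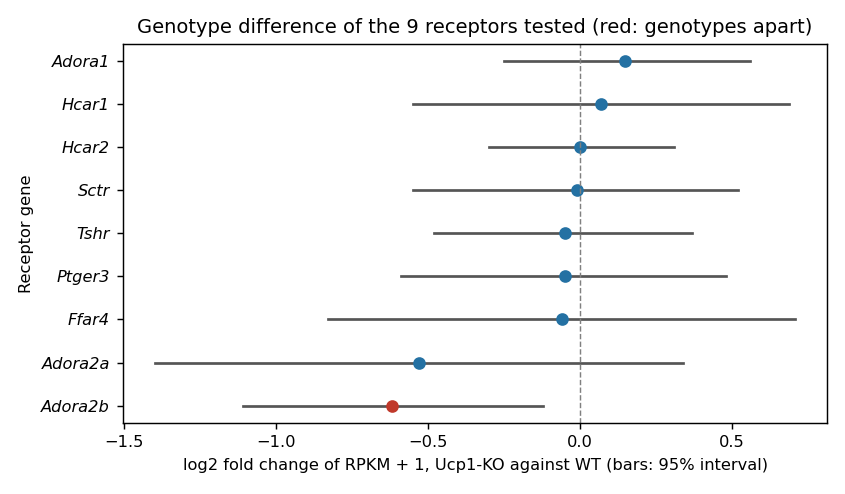
Log2 fold change of RPKM + 1 (x axis, Ucp1-KO against WT, limma) with its 95% interval for the 9 receptors tested, ordered by size. Each interval but that of Adora2b, from -1.11 to -0.12, includes 0.

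Ffar4, the receptor for long-chain fatty acids, was the most abundant of the 10 (gene at chr19:38097079-38114263, plus strand, 3 exons). It stood at 85.7, 83.7 and 86.1 RPKM in WT and at 47.9, 86.7 and 130.2 RPKM in Ucp1-KO. The WT cultures were within 1.03-fold of each other, while the Ucp1-KO cultures spread 2.72-fold, on both sides of the WT values. The means were therefore close, 85.2 ± 1.32 and 88.3 ± 41.2 RPKM (SD, n = 3). The log2 fold change was -0.06 ± 0.32 (SE; 95% interval -0.83 to 0.71; adjusted p = 0.982 in limma). Without Ucp1-KO 13 the log2 fold change was 0.32, so this culture set its direction. Behind each value lay 1077 to 2719 reads, and counting error was small beside the spread of the Ucp1-KO cultures. It was not small beside that of WT, whose 3 values all lay within the 95% Poisson interval of WT 10 alone, 82 to 89.5 RPKM. In Ucp1-KO 15, the culture with the highest Ffar4, 3 of the 6 adipocyte markers were also highest, Cidea at 1371 RPKM against 615 to 917 RPKM in the other cultures, Fabp4 and Pparg. The other 3, Adipoq, Plin1 and Lipe, were highest in Ucp1-KO 13, the culture with the lowest Ffar4. Whether the state of differentiation bears on Ffar4 was not tested.

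Ffar4 also measured up to the adrenergic receptors. Adrb3, the β3-adrenergic receptor of noradrenaline-driven lipolysis, stood at 43.3, 73.0 and 67.8 RPKM in WT and at 48.7, 68.2 and 56.4 RPKM in Ucp1-KO. Per length, Ffar4 was above Adrb3 in 5 of 6 cultures, by ratios of 1.98, 1.15 and 1.27 in WT and of 0.984, 1.27 and 2.31 in Ucp1-KO. It made up between 43.8% (Ucp1-KO 13) and 70.6% (Ucp1-KO 15) of the summed RPKM of the 10 receptors.

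Adora1, the Gi-coupled adenosine receptor through which adenosine restrains lipolysis, came next (chr1:134199215-134235457, minus strand, 3 exons). Its levels were 22.4, 22.2 and 22.6 RPKM in WT, against 18.8, 29.9 and 28.0 RPKM in Ucp1-KO. As with Ffar4, WT cultures were nearly equal and the Ucp1-KO cultures fell on both sides of them. Means were 22.4 ± 0.225 and 25.6 ± 5.96 RPKM (SD, n = 3), with a log2 fold change of 0.15 ± 0.17 (SE; 95% interval -0.25 to 0.56; adjusted p = 0.908 in limma). Ucp1-KO 13 held the value down: without it the log2 fold change was 0.35 and the unadjusted limma p was 0.00704, while its adjusted p stayed above 0.05. The other RefSeq transcript of Adora1 gave nearly the same picture, with 20.7 ± 0.4 RPKM in WT, against 23.6 ± 5.42 RPKM in Ucp1-KO (SD, n = 3). Of the 4968 exon bases of Adora1, 1162 are shared with Mybph on the opposite strand. The library kit does not mark strand, so reads there cannot be told apart between the genes, and Mybph was listed at 5.18 to 7.30 RPKM with its highest values, as for Adora1, in Ucp1-KO 14 and 15.

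The A2 adenosine receptors, which couple to Gs and oppose A1, were much lower and varied far more. Adora2a (chr10:75316877-75334792, plus strand, 3 exons) stood at 0.231, 2.48 and 1.34 RPKM in WT and at 0.440, 0.801 and 0.290 RPKM in Ucp1-KO. WT 11 and WT 12 were above all Ucp1-KO cultures, but WT 10 was the lowest of the 6, so the genotypes overlapped. The Ucp1-KO mean was 37.8% of the WT mean (0.510 ± 0.263 against 1.35 ± 1.13 RPKM, SD, n = 3). Neither the limma test (log2 fold change -0.53 ± 0.37, adjusted p = 0.876) nor the exact permutation test (p = 0.40) separated the genotypes. With 0.1 RPKM added before the log its log2 fold change was -0.90, and in limma-voom on reads it was -0.93, also with adjusted p above 0.05. Leaving out single cultures moved it as well, with log2 fold changes of -0.18 without WT 11 and -0.93 without WT 10, the latter at an unadjusted p of 0.00808 and an adjusted p of 0.406 in limma.

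Adora2b (chr11:62248984-62266452, plus strand, 2 exons) was the receptor whose genotypes did not overlap. Its levels were 0.604, 1.49 and 0.887 RPKM in WT, against 0.302, 0.503 and 0.0724 RPKM in Ucp1-KO. All WT cultures were thus above all Ucp1-KO cultures, with a Ucp1-KO mean at 29.4% of that of WT (0.293 ± 0.216 against 0.995 ± 0.455 RPKM, SD, n = 3). These values rest on few reads, namely 19, 46 and 29 in WT and 9, 16 and 2 in Ucp1-KO. Counting error alone gave 95% Poisson intervals from 0.363 to 0.943 RPKM for WT 10 and from 0.288 to 0.817 RPKM for Ucp1-KO 14, the cultures nearest to each other, so that these intervals overlapped, and the value of Ucp1-KO 15 was under the floor of 3 reads.

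The log2 fold change of Adora2b was -0.62 ± 0.21 (SE; 95% interval -1.11 to -0.12; unadjusted p = 0.0218, adjusted p = 0.868 in limma). Its exact permutation p was 0.10, the smallest that the design allows. On the reads themselves (limma-voom) the log2 fold change was -1.90, and with 0.1 RPKM in place of 1 RPKM added before the log it was -1.58, both with adjusted p above 0.05. Without WT 11 the log2 fold change was -0.44 and without Ucp1-KO 15 it was -0.49, with unadjusted limma p of 0.0683 and 0.0667.

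Both A2 receptors were highest in WT 11, the culture in which the summed endothelial and stromal markers were highest as well. The 6 endothelial markers summed to 2.91, 34.8 and 16.1 RPKM in WT and to 7.09, 16.3 and 5.84 RPKM in Ucp1-KO, with Pecam1 and Cdh5 the most abundant, and none of the 6 markers was at 0 in every culture. Adora2a ranked the 6 cultures as this sum did, except that WT 12 and Ucp1-KO 14 were exchanged. Adora2b did not follow this order, since WT 10, with the lowest endothelial sum, had the third highest Adora2b level. Of the 5 endothelial markers tested, 5 were lower in Ucp1-KO, none with an adjusted p under 0.05 in limma. The 8 stromal markers summed to 687, 1606 and 957 RPKM in WT and to 967, 875 and 594 RPKM in Ucp1-KO. Of the 7 stromal markers tested, 7 were lower in Ucp1-KO (median log2 fold change -0.44), none with an adjusted p under 0.05 in limma. Among these 7, 1 did not overlap between the genotypes, Pdgfra, against 11.2% of all transcripts. Other markers went the other way: 6 of 6 adipocyte and 6 of 7 macrophage markers were higher in Ucp1-KO. Their median log2 fold changes were 0.10 and 0.31, and none had an adjusted p under 0.05 in limma. The part of endothelial and stromal RNA in the A2 receptor values was not tested.

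**Figure D3:**
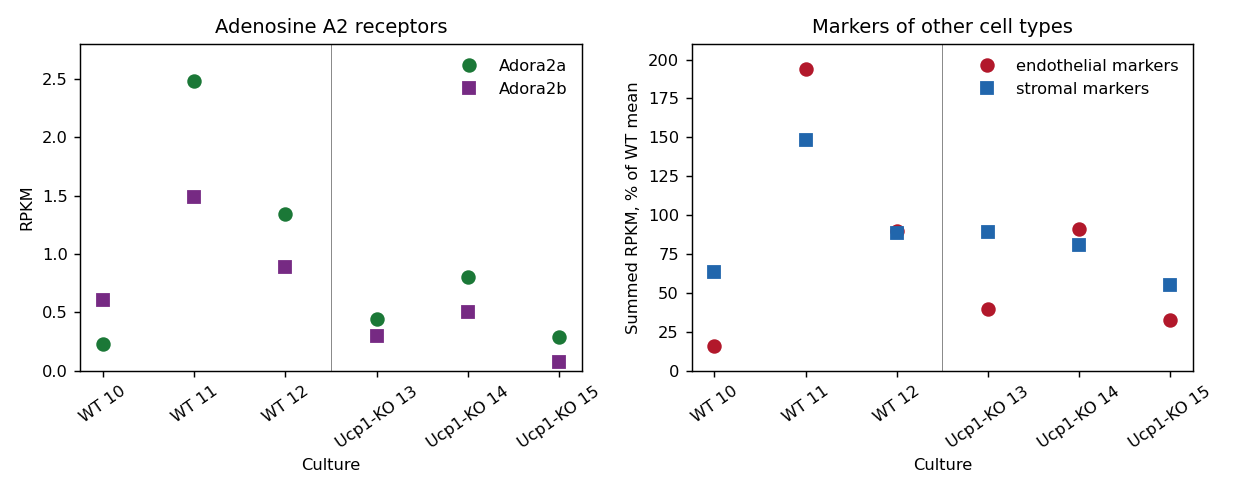
Left, RPKM of Adora2a and Adora2b in each culture. Right, summed RPKM of 6 endothelial and 8 stromal markers as a percentage of the WT mean; both receptors and both marker sums are highest in WT 11.

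Relative to the A2 receptors together, Adora1 was 26.9, 5.58 and 10.2 times as abundant in WT and 25.3, 22.9 and 77.4 times in Ucp1-KO. The excess of the Gi-coupled receptor thus held in every culture, while its size varied within each genotype by more than 3-fold and overlapped between genotypes. Genes that make, degrade or carry adenosine were measured alongside. None of the 7 passed the limma test, 3 were higher and 4 lower in Ucp1-KO (median log2 fold change -0.07). Adk, which phosphorylates adenosine, was the most abundant at 41.2 ± 3.20 RPKM in WT, against 39.3 ± 4.79 RPKM in Ucp1-KO (SD, n = 3). It was followed over all cultures by Nt5e (mean 11.2 RPKM), the ecto-enzyme that forms adenosine from AMP, the transporter Slc29a1 (7.82 RPKM) and the deaminase Ada (1.62 RPKM). The smallest p was that of Enpp1, which cleaves extracellular ATP (log2 fold change -0.52, unadjusted p = 0.0998 and adjusted p = 0.871 in limma). Adora3, the remaining adenosine receptor, gave 4 reads at most.

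Hcar1, the Gi-coupled receptor for lactate, followed Adora1 in abundance (chr5:123876739-123880003, minus strand, 1 exon). Its RPKM values were 13.3, 15.5 and 14 in WT and 17.9, 19.9 and 9.30 in Ucp1-KO. Again the Ucp1-KO cultures enclosed the WT cultures: Ucp1-KO 13 and 14 were above all of them and Ucp1-KO 15 was below. The means were 14.3 ± 1.09 and 15.7 ± 5.65 RPKM (SD, n = 3), and the log2 fold change was 0.07 ± 0.26 (SE; 95% interval -0.55 to 0.69; adjusted p = 0.975 in limma). Without Ucp1-KO 15 it was 0.38, with an unadjusted limma p of 0.0123 and an adjusted p above 0.05, and without Ucp1-KO 14 it was -0.13.

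Hcar2, its Gi-coupled neighbour for 3-hydroxybutyrate and niacin, lies 11223 bases away on the same strand (chr5:123863570-123865516, 1 exon). It varied least of the 10 over the 6 cultures (1.35-fold), with 7.34, 8.31 and 7.01 RPKM in WT, against 8.81, 7.48 and 6.54 RPKM in Ucp1-KO. Means were 7.55 ± 0.674 and 7.61 ± 1.14 RPKM (SD, n = 3), and the 95% interval of the log2 fold change ran from -0.30 to 0.31, the narrowest of the 9 (adjusted p = 0.997 in limma). Macrophages also express Hcar2, and Ucp1-KO 14, with the highest macrophage marker sum, was the third highest of 6 for Hcar2. The ratio of Hcar1 to Hcar2 was 1.81, 1.86 and 2.0 in WT and 2.04, 2.66 and 1.42 in Ucp1-KO, where it spread more, and both receptors were lowest in Ucp1-KO 15.

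Genes that form and carry their ligands were abundant in part. Ldha, the lactate dehydrogenase subunit that favours lactate, stood at 1008 ± 97.3 RPKM in WT, against 1019 ± 50 RPKM in Ucp1-KO (SD, n = 3), and Ldhb at 146 ± 6.68 and 161 ± 27.4 RPKM. Slc16a1 (MCT1), a carrier of lactate and ketone bodies, had 104, 101 and 106 RPKM in WT, against 76.5, 90.1 and 90.3 RPKM in Ucp1-KO. The genotypes did not overlap for Slc16a1, with a log2 fold change of -0.27 ± 0.10, an unadjusted p of 0.0263 and an adjusted p of 0.868 in limma. The lactate exporter Slc16a3 (MCT4) did not overlap either, with 30.1, 45.3 and 31.7 RPKM in WT, against 27.4, 29.5 and 23.3 RPKM in Ucp1-KO (log2 fold change -0.39, adjusted p = 0.868 in limma). Bdh1, of ketone body metabolism, was below the minimum of 0.5 RPKM, at a mean of 0.358 RPKM. Of the 6 genes, 4 were tested, 2 higher and 2 lower in Ucp1-KO (median log2 fold change -0.13), and none had an adjusted p under 0.05. The genotypes did not overlap for 2 of these 4, against 11.2% of all transcripts.

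Tshr, the thyrotropin receptor, accounted for most of the summed RPKM of the Gs-coupled receptors among the 10 followed here (chr12:91400993-91540509, plus strand, 10 exons). It was present at 12.6, 9.17 and 8.87 RPKM in WT and at 12.1, 8.95 and 8.34 RPKM in Ucp1-KO. In each genotype 1 culture, WT 10 and Ucp1-KO 13, was higher than the other 2, and both sets of values nearly coincided. Means were 10.2 ± 2.05 and 9.79 ± 2.01 RPKM (SD, n = 3), and the log2 fold change was -0.05 ± 0.18 (SE; 95% interval -0.48 to 0.37; adjusted p = 0.970 in limma). The thyroid marker Tg gave 4 reads or fewer in every culture.

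A shorter RefSeq transcript of Tshr, 1346 bases long against 4312, behaved differently across cultures. Its levels were 5.05, 5.96 and 4.61 RPKM in WT, against 4.92, 4.70 and 5.06 RPKM in Ucp1-KO, without the rise in WT 10 and Ucp1-KO 13. The ratio of the long to the short transcript was 2.49, 1.54 and 1.92 in WT and 2.46, 1.90 and 1.65 in Ucp1-KO. The transcripts share 777 bases of the short one's exons, so part of their reads could have been assigned to either.

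Ptger3, the Gi-coupled EP3 receptor for prostaglandin E2, was present at low abundance (chr3:157566821-157644758, plus strand, 3 exons). It stood at 1.77, 1.1 and 1.03 RPKM in WT and at 1.93, 1.09 and 0.727 RPKM in Ucp1-KO, on 22 to 63 reads. As for Tshr, WT 10 and Ucp1-KO 13 were the highest cultures of their genotypes. Means were 1.30 ± 0.408 and 1.25 ± 0.618 RPKM (SD, n = 3), with a log2 fold change of -0.05 ± 0.23 (SE; 95% interval -0.59 to 0.48; adjusted p = 0.977 in limma). EP3 was not the most abundant prostaglandin E receptor per length: Ptger1, the EP1 receptor, had a mean of 13.9 RPKM, while the Gs-coupled Ptger4 and Ptger2 had means of 1.03 and 0.193 RPKM. Ptger1 was likewise highest in WT 10 and Ucp1-KO 13, at 20.6 and 22.8 RPKM against 7.45 to 12.7 RPKM in the other cultures.

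Genes of prostaglandin synthesis, transport and inactivation were present, with none of 8 passing the limma test, 3 higher and 5 lower in Ucp1-KO (median log2 fold change -0.03). The prostaglandin E synthases Ptges2, Ptges and Ptges3 had means over all cultures of 48.6, 21.7 and 12.2 RPKM, and the cyclooxygenase Ptgs1 had 7.65 RPKM. Hpgd, which inactivates prostaglandins, was at 1.98, 0.837 and 1.18 RPKM in WT and at 3.17, 2.40 and 2.29 RPKM in Ucp1-KO. Its genotypes did not overlap, but with a log2 fold change of 0.66 ± 0.20 and an unadjusted p of 0.0143 its adjusted p was 0.868 in limma. Of the 8 genes, 1 was without overlap, against 11.2% of all transcripts.

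Sctr, the Gs-coupled receptor for the gut hormone secretin, was close to the minimum abundance (chr1:120006879-120063539, plus strand, 14 exons). Values were 1.34, 0.529 and 0.352 RPKM in WT, against 0.933, 0.573 and 0.555 RPKM in Ucp1-KO, on 12 to 44 reads. WT 10 and Ucp1-KO 13 were once more the highest cultures of their genotypes. Of the 6 adipocyte markers, 3 were also highest in these cultures, Adipoq (1480 and 1714 RPKM), Plin1 (451 and 456 RPKM) and Lipe (510 and 523 RPKM), and the other 3, Cidea, Fabp4 and Pparg, were highest in Ucp1-KO 15. Of the muscle markers tested, Acta1 was highest in WT 10 and Ucp1-KO 13 (5.60 and 8.90 RPKM) and Des in WT 12 (7.82 RPKM). What these markers have to do with Tshr, Ptger3 and Sctr was not tested. Means were 0.740 ± 0.527 and 0.687 ± 0.213 RPKM (SD, n = 3). The log2 fold change was -0.01 ± 0.23 (SE; 95% interval -0.55 to 0.52; adjusted p = 0.996 in limma), and it was 0.22 without WT 10. The ligands of Sctr and Tshr were not transcribed at a detectable level in the same cells: Tshb, Cga and Gphb5 were at 0 in all cultures, and Sct and Gpha2 gave 1 read at most, which is under the floor of 3 reads.

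**Figure D4:**
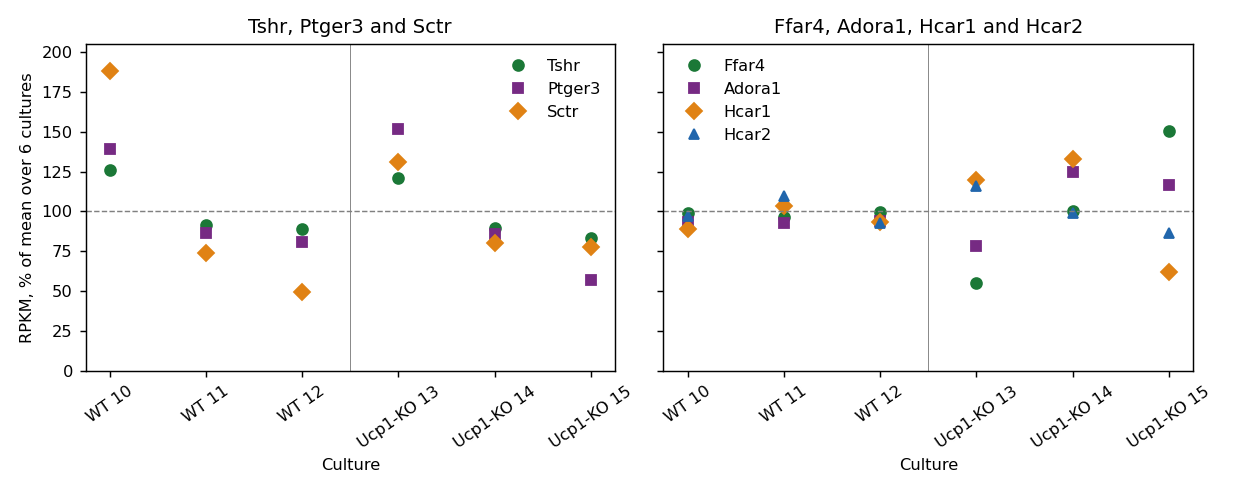
RPKM of each receptor in each culture as a percentage of its mean over the 6 cultures (dashed line, 100). Tshr, Ptger3 and Sctr (left) are highest in WT 10 and Ucp1-KO 13, whereas Ffar4, Adora1, Hcar1 and Hcar2 (right) differ little between WT cultures and spread more in Ucp1-KO.

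Gpr3, a Gs-coupled receptor that signals without a ligand, was the lowest of the 10 (chr4:133209340-133212536, minus strand, 2 exons). Its levels were 0.273, 0.224 and 0.237 RPKM in WT, against 0.318, 0.244 and 0.280 RPKM in Ucp1-KO, on 8 to 11 reads per culture. Every culture was above the floor of 3 reads for this RefSeq transcript, but the genotypes overlapped. Means were 0.245 ± 0.0257 and 0.281 ± 0.0371 RPKM, without a difference by exact permutation test (p = 0.20, n = 3 per genotype). A difference in Gpr3 would have had to exceed counting error, which alone gave 95% Poisson intervals from 0.131 to 0.503 RPKM for WT 10 and from 0.159 to 0.569 RPKM for Ucp1-KO 13. The coding Ensembl transcript of Gpr3, which is shorter, gave 5, 5 and 5 reads in WT and 3, 4 and 2 reads in Ucp1-KO. There the Ucp1-KO cultures were below the WT cultures, opposite in direction to the RefSeq transcript, and 2 of them did not exceed the floor of 3 reads, so no direction is given for Gpr3. This Ensembl transcript shares 111 of its 1116 exon bases with Cd164l2 on the opposite strand, which was listed at 0 to 0.458 RPKM. The level of Gpr3 after cold or an adrenergic stimulus was not measured.

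Grouped by coupling, transcripts of the Gi-coupled receptors among the 10 outweighed those of the Gs-coupled receptors among the 10 in every culture. This holds for the chosen receptors only. Adrenergic receptors, of which Adrb3 alone had a mean of 59.6 RPKM, are outside these sums. The 4 Gi-coupled receptors summed to 44.9, 47.1 and 44.7 RPKM in WT and to 47.4, 58.4 and 44.6 RPKM in Ucp1-KO. The 5 Gs-coupled receptors summed to 15, 13.9 and 11.7 RPKM in WT and to 14.1, 11.1 and 9.54 RPKM in Ucp1-KO. Their ratio, Gs over Gi, was 0.335, 0.295 and 0.261 in WT and 0.297, 0.190 and 0.214 in Ucp1-KO, with means of 0.297 ± 0.037 and 0.234 ± 0.0561 (SD, n = 3), and the genotypes overlapped. Adora1 held 39.5 to 62.8% of the Gi-coupled sum and Tshr 66.0 to 87.4% of the Gs-coupled sum, so the ratio followed mostly these genes. Without Tshr the mean ratio was 0.0726 in WT and 0.0351 in Ucp1-KO, and without Adora1 it was 0.586 and 0.485. The ratio without Tshr was 0.0546, 0.101 and 0.0629 in WT and 0.042, 0.0363 and 0.0268 in Ucp1-KO, so that the genotypes no longer overlapped, whereas they overlapped without Adora1. Without Tshr, the Gs-coupled sum is mainly that of the A2 receptors and Sctr, which rest on few reads. All 10 receptors together summed to 146, 145 and 143 RPKM in WT and to 109, 156 and 184 RPKM in Ucp1-KO, which is the spread of Ffar4.

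**Figure D5:**
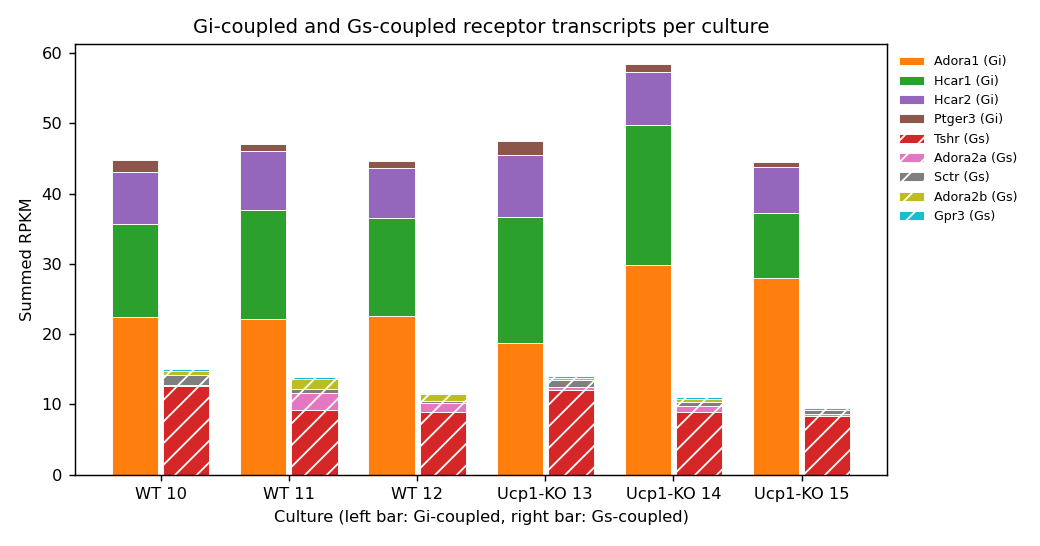
Summed RPKM of the 4 Gi-coupled (left bar, plain) and 5 Gs-coupled (right bar, hatched) receptors in each culture, stacked by gene. Gi-coupled sums lie between 44.6 and 58.4 RPKM and Gs-coupled sums between 9.54 and 15 RPKM, with Tshr the main part of the latter.

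Related receptors gave a similar result. Of 31 other receptors of the same families or of other hormones of adipocytes, 14 were abundant enough to be tested, 8 were higher and 6 lower in Ucp1-KO (median log2 fold change 0.07), and none had an adjusted p under 0.05 in limma. The natriuretic peptide clearance receptor Npr3 led with a mean of 40.3 RPKM, followed by Ptger1, Npr2 (8.35 RPKM) and the short-chain fatty acid receptor Ffar2 (8.12 RPKM). The smallest p was that of Pth1r, the parathyroid hormone receptor, with 2.77, 3.94 and 2.82 RPKM in WT, against 2.17, 2.14 and 2.22 RPKM in Ucp1-KO (log2 fold change -0.38 ± 0.13, unadjusted p = 0.0261, adjusted p = 0.868 in limma). Ffar1, Gpr6, Gpr12, Lhcgr and Fshr, relatives of Ffar4, Gpr3 and Tshr, had no read in any culture, and 9 of the 31 did not exceed 3 reads in any.

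The G proteins and regulators through which these receptors signal gave no call after adjustment either. Of 31 genes 29 were abundant enough to be tested, 11 higher and 18 lower in Ucp1-KO (median log2 fold change -0.10), and 16 of these 29 were highest in WT 11. In limma 0 had an adjusted p under 0.05, and 4 of the 29 had an unadjusted p under 0.05, against 5.54% of all transcripts. Cultures of both genotypes were apart for 5 of these genes, against 11.2% of all transcripts: Gnal, Gnb5 and Rgs16 were lower and Grk3 and Ric8b higher in every Ucp1-KO culture than in any WT culture. Gnas, the gene of the Gs α subunit, had 793 ± 78.1 RPKM in WT, against 918 ± 119 RPKM in Ucp1-KO, in a non-coding RefSeq transcript of the locus, and Gnai2, of the Gi α subunit, had 82.1 ± 18.6 and 70.6 ± 15.9 RPKM (SD, n = 3). The β subunits Gnb2 and Gnb1 had means over all cultures of 117 and 84.4 RPKM. Rgs16, which ends Gi and Gq signals, had the smallest p (log2 fold change -0.65 ± 0.22, unadjusted p = 0.0213, adjusted p = 0.868 in limma) and stood at 17.9 RPKM in WT 11 against 6.83 to 12.2 RPKM in the other cultures.

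Among the 9 adrenergic receptors, 5 were tested, 4 higher and 1 lower in Ucp1-KO (median log2 fold change 0.24), with none called after adjustment. By mean the most abundant were Adrb3 (59.6 RPKM), Adra1a (9.37 RPKM), Adra1d (7.25 RPKM) and Adrb1 (6.76 RPKM), so that Adora1, Hcar1 and Tshr exceeded all adrenergic receptors except Adrb3 in mean abundance per length over the 6 cultures. Adra1a stood at 9.57, 5.56 and 6.14 RPKM in WT and at 12.2, 11.8 and 11 RPKM in Ucp1-KO. Its log2 fold change was 0.68, with an unadjusted p of 0.00823 and an adjusted p of 0.868 in limma. Within Ucp1-KO, Adra1a was above Tshr in all 3 cultures.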

How the data were processed

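The authors sequenced 50-base single reads of 6 cultures and used mouse genome build 38 to assign unique reads to known transcripts. The deposited values are RPKM, which the authors scaled to transcript length and mapped reads. Their genotype comparison was a test on reads and was not repeated, and RPKM was tested here on a log scale. Receptors and gene lists were chosen with earlier results of these data known. Of each further list, the 4 most abundant genes and the one with the smallest p were to be named, besides any adjusted call, and other genes were named after their values were seen. Some genes of these lists are not reported here.

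The 16865 of 28890 RefSeq transcripts whose mean reached 0.5 RPKM were compared on log2(RPKM + 1) with limma 3.58.1 (R 4.3.3; empirical Bayes with intensity trend, no covariates, Benjamini-Hochberg, threshold 0.05). The test was checked on simulated data. Alternatives were 0.1 RPKM added, no minimum, 1 transcript per gene, all annotations, median-of-ratios scaling, limma-voom on reads and leaving out each culture. Single receptors were compared by exact two-sided permutation tests (scipy 1.17.1).

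Reads were recovered from RPKM and library totals. The length of each RefSeq transcript was taken as the smallest that gave whole reads in all cultures. Such a length was found for all 16865 tested transcripts, which is therefore no check of the reads. With annotated lengths, 93.02 to 93.2% of Ensembl values, which also set the totals, gave whole reads within 0.02. Intervals and the floor of 3 reads cover counting error only. The design text calls the 3 cultures of each genotype independent. Coordinates are from RefSeq and GENCODE on GRCm38, and gene symbols were matched by gene ID.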

Additional observations from a re-analysis of the deposited data

How the results depend on the processing

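No receptor and no transcript had an adjusted p under 0.05 in any of the 12 alternatives run. Of 108 log2 fold changes of the 9 receptors under these, 93 kept their direction and 15, in 6 genes whose values lay near 0, turned it. For Sctr the value turned to 0.05 with 0.1 RPKM added and to 0.09 in limma-voom on reads. The other reversals came from leaving out 1 culture, over which the log2 fold change ran from -0.40 to 0.32 for Ffar4, from -0.13 to 0.38 for Hcar1, from -0.20 to 0.09 for Tshr, from -0.09 to 0.10 for Hcar2, from -0.26 to 0.12 for Ptger3 and from -0.17 to 0.22 for Sctr. It kept its direction for Adora1 (0.03 to 0.35), Adora2a (-0.93 to -0.18) and Adora2b (-0.76 to -0.44). Leaving out 1 culture moved the number of all transcripts with an unadjusted p under 0.05 from 935 to between 317 (without WT 11) and 1754 (without WT 10), and with all annotations it was 5193 of 95358 transcripts tested, or 5.45% against 5.54%. The ratio of Gs-coupled to Gi-coupled receptors was 0.0726 (WT) and 0.0351 (Ucp1-KO) without Tshr and 0.586 and 0.485 without Adora1. Summed over RefSeq transcripts, Adora1 had 43.2 and 49.1 RPKM and Tshr 15.4 and 14.7 RPKM in WT and Ucp1-KO, with shared reads counted more than once. No paired analysis was possible because the genotypes share no replicate number. Depth limits Ptger3, Adora2a, Adora2b, Sctr and Gpr3, which had 2 to 105 reads per culture.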
